A study of Mus musculus with 12 samples.

Results

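The transcripts described here encode the machinery of oxidative phosphorylation in mouse dendritic cells. They were taken as every row of the expression table whose gene symbol began with Ndufa, Ndufb, Ndufc, Ndufs, Ndufv, Uqcr, Cox4 to Cox8 or Atp5, or was Sdha, Sdhb, Sdhc, Sdhd, Cyc1 or Cycs. That gave 90 of the 11786 genes of the table. By the complex to which each protein belongs, 36 were complex I subunits, 4 complex II, 9 complex III (Cyc1 among them), 14 complex IV (with Ndufa4 and Cox7a2l placed there) and 17 complex V, and 1 was cytochrome c. The symbol rule also took in 8 complex I assembly factors (Ndufaf1 to Ndufaf8), which help to build the complex and are not part of it, and 1 pseudogene, Ndufs5-ps. These are counted among the 90 and described apart.

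RNA sequencing had been run on mouse dendritic cells that were derived from bone marrow in culture with GM-CSF, a myeloid growth factor. The 4 groups were cells of mice labelled Ythdf1-/- cultured overnight with necrotic B16-OVA, cells of that label alone, wild-type cells with the same lysate, and wild-type cells alone, with 2 libraries each. B16-OVA is a melanoma line engineered to express ovalbumin, and Ythdf1 is a reader protein of N6-methyladenosine in mRNA. Dendritic cells were purified before RNA extraction, and the sources used here do not give the age, sex and number of mice or the altered part of the Ythdf1 gene. The series also lists 2 input and 2 precipitated RNA immunoprecipitation samples, which were not analysed here.

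Complexes I to IV form the electron transport chain of the inner mitochondrial membrane. Complex I takes electrons from NADH and complex II from succinate, complex III passes them to the mobile carrier cytochrome c, and complex IV hands them to oxygen. Complexes I, III and IV pump protons, and complex V, the ATP synthase, lets protons flow back and makes ATP. Dendritic cells activated through Toll-like receptors are known to shift from oxidative phosphorylation towards glycolysis. All subunits measured here are encoded in the nucleus, and the 13 subunits encoded by mitochondrial DNA had no row in the table used here.

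Values were log2 levels without counts, so sequencing depth is unknown. Library medians over all genes lay between 8.53 and 8.55. Changes are log2 differences of group means with the standard error (SE) of 1 limma fit over all 8 libraries, and p-values are Benjamini-Hochberg adjusted over 11785 genes, with 0.05 as the threshold for a called gene. Unless a changed setting is named, calls are of this fit. All 90 members passed the filter on low values, and the median SE of a member in a comparison of groups was 0.09, with a range of 0.06 to 0.17. Lack of overlap between groups is given as a description only. With 2 libraries a group it also occurred without a call, and its share over all genes is not given. For example, lysate and alone did not overlap for Sdha in wild-type cells (0.06, adjusted p = 0.514). The Ythdf1 transcript was at 9.51 and 9.46 in KO-labelled cells with lysate and 9.53 and 9.43 in KO-labelled cells alone, against 9.72 and 9.58 in wild-type cells with lysate and 9.58 and 9.43 in wild-type cells alone. It was not called lower in the libraries labelled Ythdf1-/- (log2 change -0.16, adjusted p = 0.202 with lysate and -0.03, adjusted p = 0.85 alone), so genotype groups are named by their label. All 12 dendritic cell markers had a row, and the 5 B cell and 5 erythroid markers had none.

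Most of the 90 transcripts did not pass the test in any comparison. With lysate, 7 members (7.78%) were called in KO-labelled cells, against a background of 15.2% of all genes, and 5 (5.56%) in wild-type cells, against 21.5%. Between genotype labels, 7 members (7.78%) were called in cells with lysate, against 12.9% of all genes, and 2 (2.22%) in cells alone, against 16.2%. In all, 13 members were called in at least 1 of these 4 comparisons and 77 in none. In KO-labelled cells 2 members rose with lysate (Cycs and Uqcrb), where 8.28% of all genes were higher, and 5 fell (Cox7a2l, Uqcrh, Ndufa13, Ndufb7 and Cox4i1), where 6.92% were lower. In wild-type cells 3 rose (Cycs, Ndufa12 and Uqcrb), where 10.2% of all genes were higher, and 2 fell (Cox7a2l and Uqcrh), where 11.3% were lower. The balance of directions in wild-type cells turned on single libraries, with 3 higher and 16 lower when wild-type lysate replicate 2 was left out and 5 higher and 1 lower when replicate 1 was. With the trend of each library on transcript GC content and length removed it was 9 higher and 6 lower. All 9 calls between genotype labels were lower in KO-labelled cells, where 5.45% of all genes were lower and 7.44% higher with lysate, and 9.23% were lower and 7.02% higher alone. Shares of all genes were not set beside the balances with a library left out or the trend removed. Those balances therefore do not set the members apart from other genes. Comparisons that share a group of libraries are not independent of each other.

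**Figure D1:**
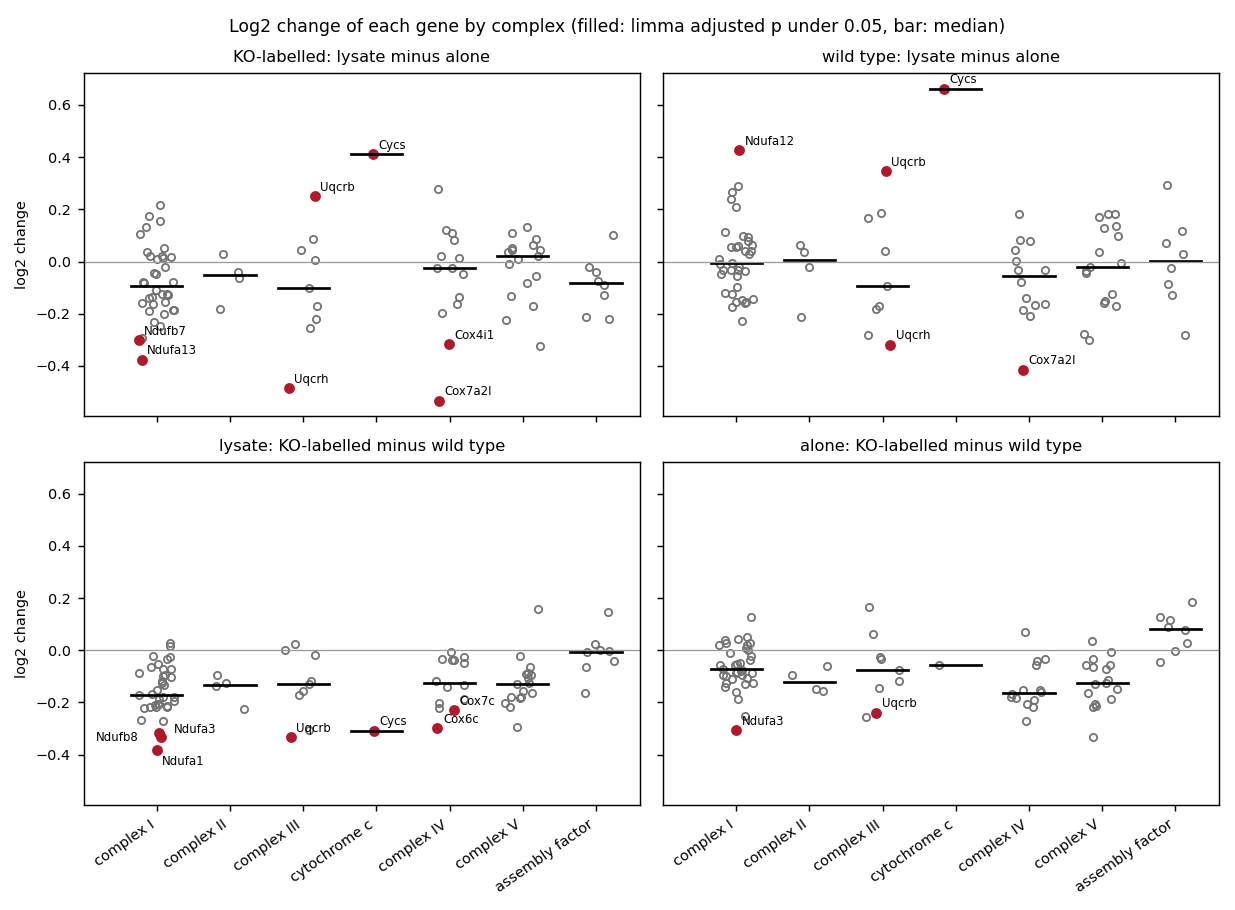
Log2 change (y axis) of 89 transcripts, without the pseudogene, in each complex (x axis), in panels for lysate minus alone in each genotype label and KO-labelled minus wild type in each treatment; filled points passed the limma threshold and bars are medians. The lysate panels hold calls on both sides of 0, while the filled points of both genotype panels lie below 0.

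Cytochrome c had the largest change among the members. The protein of Cycs carries electrons from complex III to complex IV, and on release into the cytosol it helps to trigger apoptosis. Cycs (Entrez 13063) stood at 9.93 and 10.04 in KO-labelled cells with lysate and at 9.52 and 9.63 in KO-labelled cells alone. In wild-type cells it was at 10.34 and 10.24 with lysate and at 9.71 and 9.55 alone. In each genotype label both lysate libraries were above both libraries alone. The rise was 0.41 (SE 0.08, 1.33-fold, adjusted p = 0.00455) in KO-labelled cells and 0.66 (SE 0.08, 1.58-fold, adjusted p = 0.000153) in wild-type cells. With lysate the level in KO-labelled cells was below that in wild-type cells (-0.31, SE 0.08, adjusted p = 0.0254), with no overlap, and alone the labels overlapped (-0.06, adjusted p = 0.707). The rise in KO-labelled minus that in wild-type cells was -0.25 (SE 0.12, adjusted p = 0.595) and was not called. Without KO-labelled lysate replicate 2 the rise in KO-labelled cells was 0.35 (adjusted p = 0.083), and without KO-labelled lysate replicate 1 the genotype change with lysate was -0.25 (adjusted p = 0.275). That genotype call was also lost without each of the other lysate libraries, with adjusted p from 0.0587 to 0.149. The mouse genome holds many processed copies of Cycs, so its reads may have been split between near-identical rows.

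Promoters of 3 members that moved with lysate in both genotype labels are shown to set the sequence beside the values. They are RefSeq sequences of build GRCm38.p6 from 250 bases before to 50 after the start site, and 75 of the 90 members had an entry. Capitals mark matches, on either strand, to 4 motifs. These were the NRF1 core CGCATGCG and the ETS motif CCGGAAG, both known from promoters of respiratory genes, the YY1 motif AAGATGGCG and the cAMP response element TGACGTCA. The Cycs promoter (chr6:50566520-50566819, minus strand) held a cAMP response element whose first base was at -169 and an NRF1 core at -61. That of Uqcrh (chr4:116075021-116075320, minus strand) held an ETS match at -10, and that of Cox7a2l (chr17:83514284-83514583, minus strand) held none of these letters.
Cycs: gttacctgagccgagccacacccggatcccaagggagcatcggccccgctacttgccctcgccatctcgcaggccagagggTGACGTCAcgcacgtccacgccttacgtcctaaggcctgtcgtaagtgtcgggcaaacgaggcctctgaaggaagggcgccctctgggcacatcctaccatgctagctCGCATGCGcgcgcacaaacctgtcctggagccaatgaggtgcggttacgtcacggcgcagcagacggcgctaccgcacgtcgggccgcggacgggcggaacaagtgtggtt
Uqcrh: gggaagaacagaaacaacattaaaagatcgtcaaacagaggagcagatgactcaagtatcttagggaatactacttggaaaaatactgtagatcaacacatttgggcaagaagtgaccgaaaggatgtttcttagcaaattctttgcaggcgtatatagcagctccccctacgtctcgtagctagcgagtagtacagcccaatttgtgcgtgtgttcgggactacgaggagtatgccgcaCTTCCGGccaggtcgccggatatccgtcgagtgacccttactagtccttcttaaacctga
Cox7a2l: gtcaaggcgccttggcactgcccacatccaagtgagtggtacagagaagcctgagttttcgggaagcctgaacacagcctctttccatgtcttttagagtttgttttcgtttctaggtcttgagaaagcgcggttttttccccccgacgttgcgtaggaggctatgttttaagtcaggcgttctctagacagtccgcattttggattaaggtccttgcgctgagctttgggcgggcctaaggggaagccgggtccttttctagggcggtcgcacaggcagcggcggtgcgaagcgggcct
Over the 75 members with a promoter, 16% held the NRF1 core, against 4.41% of the 9427 genes of the table with one. The ETS motif was in 25.3% of member promoters, against 20.8%, the YY1 motif in 10.7%, against 3.72%, and the cAMP response element in 6.67%, against 3.62%. In no member promoter did matches of different motifs share bases. The motifs were chosen with member promoters in view, so these shares are no test of the members. The matches describe letters in a window and show no binding.

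Complex III held 2 subunits that moved in opposite directions with lysate in both genotype labels. Uqcrb (Entrez 67530) encodes a small subunit next to a ubiquinone site. Its levels were 10.10 and 10.03 in KO-labelled cells with lysate, 9.80 and 9.83 in KO-labelled cells alone, 10.40 and 10.40 in wild-type cells with lysate and 10.10 and 10.01 in wild-type cells alone. With lysate it rose by 0.25 (SE 0.07, adjusted p = 0.0271) in KO-labelled cells and by 0.35 (SE 0.07, adjusted p = 0.00392) in wild-type cells. It was lower in KO-labelled than in wild-type cells both with lysate (-0.33, SE 0.07, adjusted p = 0.0083) and alone (-0.24, SE 0.07, adjusted p = 0.0323). None of these 4 pairs of groups overlapped. Leaving out either KO-labelled lysate library ended the Uqcrb call with lysate in KO-labelled cells (adjusted p = 0.222 without replicate 1 and 0.0984 without replicate 2) and that between labels with lysate (adjusted p = 0.0786 and 0.091). The first of these was also lost without KO-labelled alone replicate 1 (adjusted p = 0.124), and the call between labels alone without any library other than those of wild-type lysate (adjusted p from 0.0537 to 0.195). With the trend of each library on transcript GC content and length removed, the genotype change was -0.11 with lysate (adjusted p = 0.213) and -0.09 alone (adjusted p = 0.304). With only the groups compared Uqcrb was not called between labels alone (adjusted p = 0.092).

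Uqcrh (Entrez 66576) encodes the hinge protein, which helps the cytochrome c1 subunit to pass electrons to cytochrome c. Its levels were 10.70 and 10.73 in KO-labelled cells with lysate and 11.28 and 11.13 in KO-labelled cells alone, and 10.57 and 10.87 in wild-type cells with lysate and 10.98 and 11.10 in wild-type cells alone. With lysate it fell in both labels, with a log2 change of -0.48 (SE 0.09, adjusted p = 0.00383) in KO-labelled and -0.32 (SE 0.09, adjusted p = 0.028) in wild-type cells, and neither pair of groups overlapped. Between labels it was not called, but with the GC and length trend removed Uqcrh alone was higher in KO-labelled cells (0.30, adjusted p = 0.000641). Without wild-type lysate replicate 1 the wild-type change of Uqcrh was -0.17 (adjusted p = 0.271), and it was not called without wild-type alone replicate 2 (adjusted p = 0.185) or either KO-labelled lysate library (adjusted p = 0.0592 and 0.0591). The call in KO-labelled cells was lost without either KO-labelled lysate library (adjusted p = 0.0628 and 0.0501). Reads could have been shared with annotated processed copies, of which Uqcrh-ps1 and Uqcrh-ps2 had no row in the table used here.

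The other 7 complex III members were not called in any comparison. Cyc1 (Entrez 66445), the cytochrome c1 subunit that docks cytochrome c, was at 9.69 and 9.71 in KO-labelled cells with lysate, 9.79 and 9.59 in KO-labelled cells alone, 9.57 and 9.77 in wild-type cells with lysate and 9.55 and 9.71 in wild-type cells alone. The groups of Cyc1 overlapped in all 4 comparisons, and its changes ran from 0.01 to 0.06. Uqcrq, a small subunit, had a change with lysate of -0.22 in KO-labelled cells (adjusted p = 0.157) and -0.28 in wild-type cells (adjusted p = 0.0633). With the GC and length trend removed the wild-type change of Uqcrq was -0.23 and was called (adjusted p = 0.0201). Uqcr11, another small subunit, had a genotype change of -0.31 with lysate (adjusted p = 0.0822), and of -0.21 with that trend removed, which was called (adjusted p = 0.0202).

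**Figure D2:**
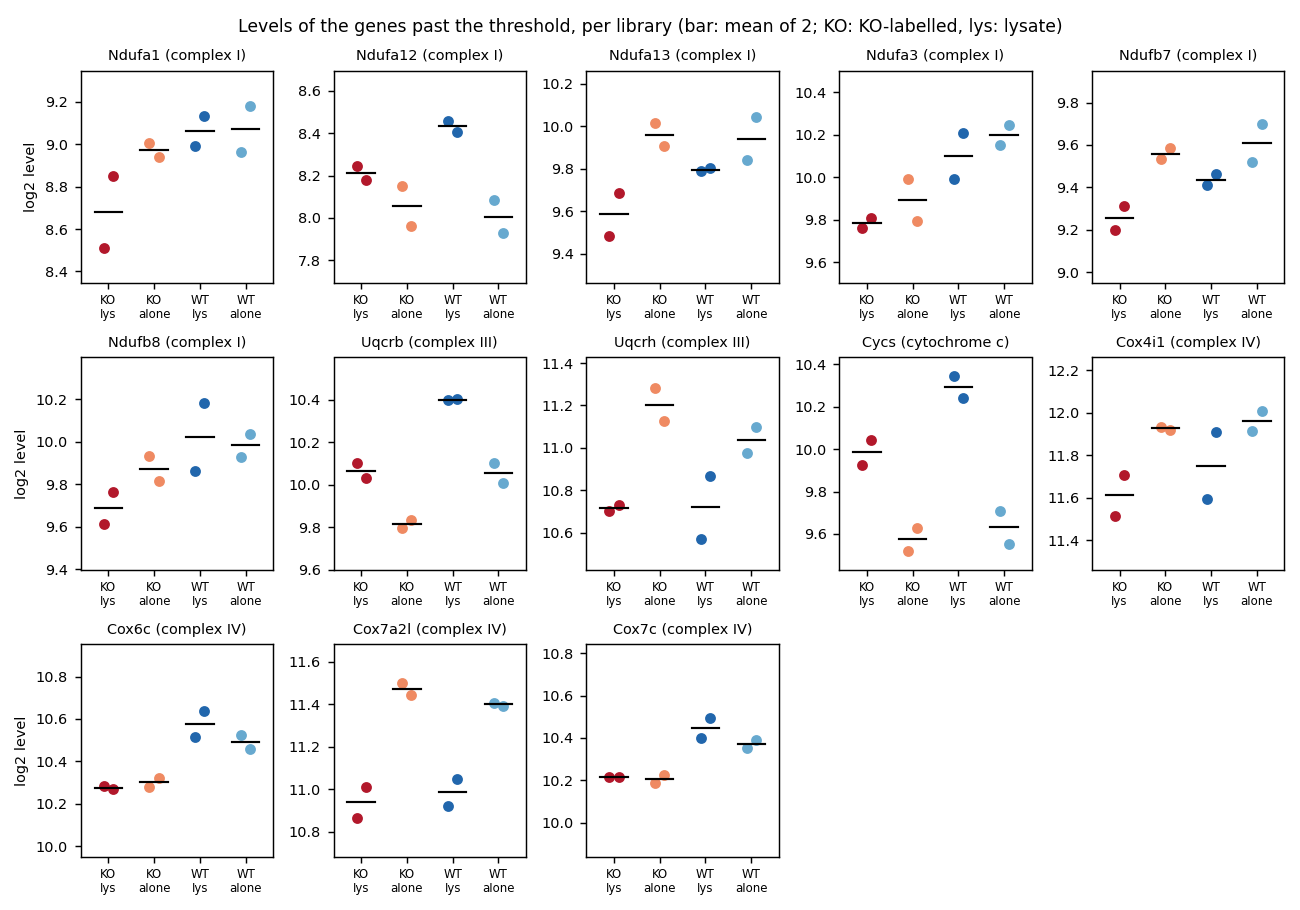
Log2 level (y axis, each panel spanning 1 log2 unit) of the 13 called transcripts in the 4 groups (x axis), with points for single libraries and bars for the mean of 2. Cycs and Uqcrb lie higher with lysate in both labels, while Cox7a2l and Uqcrh lie lower.

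In complex I, the largest of the complexes, 6 of 36 subunits were called in at least 1 comparison. All 6 are accessory subunits, which stabilise the complex and carry no redox centre. Ndufa12 (Entrez 66414), whose product takes the place of the assembly factor Ndufaf2 late in assembly, rose with lysate in wild-type cells. It was at 8.24 and 8.18 in KO-labelled cells with lysate and 8.15 and 7.96 in KO-labelled cells alone, and at 8.46 and 8.41 in wild-type cells with lysate and 8.08 and 7.93 in wild-type cells alone. Lysate and alone did not overlap in either label. The change was 0.16 (SE 0.09, adjusted p = 0.276) in KO-labelled cells and 0.43 (SE 0.09, adjusted p = 0.00559) in wild-type cells, and the difference between the labels, -0.27 (adjusted p = 0.61), was not called. The wild-type call was lost when wild-type alone replicate 2 (adjusted p = 0.0685) or wild-type lysate replicate 1 (adjusted p = 0.0523) was left out.

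Ndufa13 (Entrez 67184), also known as GRIM-19, and Ndufb7 (Entrez 66916), an accessory subunit on the intermembrane space side, fell with lysate in KO-labelled cells. Ndufa13 was at 9.48 and 9.69 in KO-labelled cells with lysate and 10.01 and 9.91 in KO-labelled cells alone, and at 9.79 and 9.80 in wild-type cells with lysate and 9.84 and 10.04 in wild-type cells alone. Ndufb7 was at 9.20 and 9.31 in KO-labelled cells with lysate and 9.53 and 9.58 in KO-labelled cells alone, and at 9.41 and 9.46 in wild-type cells with lysate and 9.52 and 9.70 in wild-type cells alone. Between labels with lysate the change was -0.21 for Ndufa13 (adjusted p = 0.135) and -0.18 for Ndufb7 (adjusted p = 0.157). With the GC and length trend removed Ndufa13 was called lower in KO-labelled cells with lysate (-0.26, adjusted p = 0.00541). For both genes the lysate libraries of each label lay below those alone. The change with lysate in KO-labelled cells was -0.38 for Ndufa13 (SE 0.09, adjusted p = 0.0128) and -0.30 for Ndufb7 (SE 0.08, adjusted p = 0.0232). In wild-type cells it was -0.15 for Ndufa13 (adjusted p = 0.263) and -0.17 for Ndufb7 (adjusted p = 0.14). The difference between the lysate effects of the labels was not called for either gene. Without KO-labelled lysate replicate 1 the changes were -0.27 for Ndufa13 (adjusted p = 0.184) and -0.25 for Ndufb7 (adjusted p = 0.216). Ndufb7 also lost its call when KO-labelled lysate replicate 2 (adjusted p = 0.076) or KO-labelled alone replicate 2 (adjusted p = 0.0565) was left out, and with the GC and length trend of each library removed (-0.16, adjusted p = 0.106).

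Ndufa3, Ndufa1 and Ndufb8, accessory subunits of the membrane arm, were lower in KO-labelled than in wild-type cells with lysate. Ndufa3 (Entrez 66091) was at 9.76 and 9.81 in KO-labelled cells with lysate, against 9.99 and 10.21 in wild-type cells with lysate. In cells alone it was at 9.99 and 9.79 in KO-labelled cells, against 10.15 and 10.24 in wild-type cells. Its genotype change was -0.32 (SE 0.09, adjusted p = 0.0342) with lysate and -0.31 (SE 0.09, adjusted p = 0.0328) alone, with no overlap in either. Ndufa1 (Entrez 54405) was at 8.51 and 8.85 in KO-labelled cells with lysate, against 8.99 and 9.13 in wild-type cells with lysate (-0.38, SE 0.11, adjusted p = 0.0371). Ndufb8 (Entrez 67264) was at 9.61 and 9.76 in KO-labelled cells with lysate, against 9.86 and 10.18 in wild-type cells with lysate (-0.33, SE 0.10, adjusted p = 0.044). For neither gene did these groups overlap. Ndufa1 was at 9.01 and 8.94 in KO-labelled cells alone, against 8.96 and 9.18 in wild-type cells alone, and Ndufb8 at 9.93 and 9.81, against 9.93 and 10.04. These groups overlapped, and the genotype change alone was -0.10 for Ndufa1 (adjusted p = 0.612) and -0.11 for Ndufb8 (adjusted p = 0.527). Without KO-labelled lysate replicate 1 none of the 3 was called with lysate (adjusted p = 0.257 for Ndufa3, 0.401 for Ndufa1 and 0.356 for Ndufb8), and none was without wild-type lysate replicate 2 (adjusted p = 0.231 for Ndufa3, 0.2 for Ndufa1 and 0.319 for Ndufb8). The call was lost without KO-labelled lysate replicate 2 for Ndufa3 (adjusted p = 0.126) and Ndufb8 (adjusted p = 0.0972), and without wild-type lysate replicate 1 for Ndufa1 (adjusted p = 0.0792). With the GC and length trend removed the genotype change with lysate was -0.16 for Ndufa1 (adjusted p = 0.182), -0.16 for Ndufa3 (adjusted p = 0.0408) and -0.25 for Ndufb8 (adjusted p = 0.00576), and that of Ndufa3 alone was -0.16 (adjusted p = 0.0341). Ndufa3 alone was not called without either wild-type alone library, KO-labelled alone replicate 2 or either KO-labelled lysate library. With only the groups compared Ndufa3 alone was not called (adjusted p = 0.0719). Without the trend of the variance on the mean neither Ndufa3 (adjusted p = 0.0504) nor Ndufb8 (adjusted p = 0.0629) was called with lysate. Ndufb8 was not called under quantile normalization either (adjusted p = 0.0505).

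The 7 core subunits of complex I, which carry the flavin and the iron-sulfur clusters or form the quinone site (Ndufs8 and Ndufv1 among them), were not called in any comparison. Their median genotype change was -0.07 with lysate and -0.06 alone. Ndufs8 was at 8.41 and 8.40 in KO-labelled cells with lysate, against 8.67 and 8.67 in wild-type cells with lysate (-0.27, adjusted p = 0.0697). With the GC and length trend removed Ndufs8 was called lower in KO-labelled cells with lysate (-0.25, adjusted p = 0.0142) and alone (-0.23, adjusted p = 0.0162). Ndufab1, the mitochondrial acyl carrier protein and an accessory subunit, had a change with lysate of -0.04 in KO-labelled cells (adjusted p = 0.824) and 0.29 in wild-type cells (adjusted p = 0.0855). The wild-type change of Ndufab1 was 0.49 without wild-type lysate replicate 1, where it was called (adjusted p = 0.0143), and 0.09 without replicate 2 (adjusted p = 0.587).

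In complex IV, Cox7a2l fell with lysate in both genotype labels. Its product joins complexes III and IV into supercomplexes. Cox7a2l (Entrez 20463) was at 10.87 and 11.01 in KO-labelled cells with lysate and 11.50 and 11.44 in KO-labelled cells alone, and at 10.92 and 11.05 in wild-type cells with lysate and 11.41 and 11.39 in wild-type cells alone. The change was -0.53 (SE 0.07, 0.691-fold, adjusted p = 0.000394) in KO-labelled cells and -0.41 (SE 0.07, 0.75-fold, adjusted p = 0.00171) in wild-type cells. Every lysate library lay below every library alone. It was not called between labels, with -0.05 (adjusted p = 0.705) with lysate and 0.07 (adjusted p = 0.586) alone.

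Cox4i1 (Entrez 12857), the broadly expressed isoform of the largest nuclear-encoded subunit, fell with lysate in KO-labelled cells. It was at 11.51 and 11.71 in KO-labelled cells with lysate and 11.93 and 11.92 in KO-labelled cells alone, and at 11.59 and 11.91 in wild-type cells with lysate and 11.91 and 12.01 in wild-type cells alone. The lysate libraries of KO-labelled cells lay below those alone, and in wild-type cells 1 lysate library came close to the lower library alone. The change was -0.32 (SE 0.10, adjusted p = 0.0415) in KO-labelled cells and -0.21 (SE 0.10, adjusted p = 0.138) in wild-type cells. Without KO-labelled lysate replicate 1 the change of Cox4i1 in KO-labelled cells was -0.22 (adjusted p = 0.347), and the call was also lost without KO-labelled lysate replicate 2 (adjusted p = 0.075) or KO-labelled alone replicate 1 (adjusted p = 0.0664). With the GC and length trend removed the change of Cox4i1 in KO-labelled cells was -0.20 (adjusted p = 0.0231). Without the trend of the variance on the mean it was not called (adjusted p = 0.0666). In wild-type cells Cox4i1 was called when wild-type lysate replicate 2 was left out (-0.37, adjusted p = 0.023).

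Cox6c and Cox7c, small nuclear-encoded subunits, were lower in KO-labelled than in wild-type cells with lysate. Cox6c (Entrez 12864) was at 10.28 and 10.27 in KO-labelled cells with lysate, against 10.51 and 10.64 in wild-type cells with lysate (-0.30, SE 0.07, adjusted p = 0.0148). In cells alone it was at 10.28 and 10.32 in KO-labelled cells, against 10.53 and 10.46 in wild-type cells (-0.19, adjusted p = 0.0854). The labels did not overlap in either treatment. Cox7c (Entrez 12867) was at 10.22 and 10.22 in KO-labelled cells with lysate, against 10.40 and 10.50 in wild-type cells with lysate (-0.23, SE 0.07, adjusted p = 0.041). In cells alone it was at 10.19 and 10.22 in KO-labelled cells, against 10.35 and 10.39 in wild-type cells (-0.17, adjusted p = 0.122), again without overlap. With the GC and length trend removed the genotype change with lysate was -0.14 for Cox6c (adjusted p = 0.0712) and -0.04 for Cox7c (adjusted p = 0.663). Without the trend of the variance on the mean Cox7c was not called with lysate (adjusted p = 0.0643). Without KO-labelled lysate replicate 1 the adjusted p was 0.14 for Cox6c and 0.245 for Cox7c. With the second of these libraries left out it was 0.104 for Cox6c and 0.167 for Cox7c, and without wild-type lysate replicate 2 it was 0.102 for Cox6c and 0.192 for Cox7c. Cox7c was not called without wild-type lysate replicate 1 either (adjusted p = 0.0634).

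Several complex IV subunits have tissue isoforms, and the ubiquitous forms were the abundant ones. Levels between genes are given per length, as the mean log2 level of the 8 libraries minus the log2 transcript length in kilobases. On this scale Cox4i1 was at 12.22, Cox6b1 at 11.69, Cox8a at 11.06, Cox6a1 at 10.54 and Cox7a2 at 10.50. Cox6b2, the testis form, was at 5.46 and Cox7a1, the heart and muscle form, at 5.57. Before the length term those were at 4.60 and 4.22 on average, near the low end of the table, which ran from 3.24 to 17.88. The other tissue forms Cox4i2, Cox6a2, Cox7b2, Cox8b and Cox8c and the Ndufa4 paralogue Ndufa4l2 had no row in the table used here. Ndufa4 (Entrez 17992), now placed in complex IV, was at 8.24 and 8.29 in KO-labelled cells with lysate and 8.10 and 8.21 in KO-labelled cells alone, against 8.32 and 8.62 in wild-type cells with lysate and 8.43 and 8.41 in wild-type cells alone. KO-labelled cells lay below wild-type cells in both treatments, with a change of -0.20 with lysate (adjusted p = 0.186) and -0.27 alone (adjusted p = 0.0802).

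No subunit of complex V was called in any comparison of the limma fit described above, before any change of setting. Atp5a1 (Entrez 11946), the alpha subunit of the catalytic head, was at 12.16 and 12.14 in KO-labelled cells with lysate and 12.12 and 12.13 in KO-labelled cells alone, against 12.30 and 12.36 in wild-type cells with lysate and 12.15 and 12.17 in wild-type cells alone. Its change with lysate was 0.02 (adjusted p = 0.849) in KO-labelled cells and 0.17 (adjusted p = 0.0652) in wild-type cells. Atp5pb (Entrez 11950), the stalk subunit, was at 10.47 and 10.48 in KO-labelled cells with lysate, against 10.67 and 10.69 in wild-type cells with lysate (-0.20, adjusted p = 0.062). The labels did not overlap with lysate for either gene, yet neither passed the threshold. The 3 genes for the same c subunit of the proton ring differed in level per length, with Atp5g2 at 11.63, Atp5g3 at 10.78 and Atp5g1 at 7.86, and none was called. Atp5md and Atp5e, small subunits, differed widely between the 2 wild-type lysate libraries, with 7.99 and 8.74 for Atp5md and 9.96 and 10.62 for Atp5e. Without replicate 2 both were called lower with lysate in wild-type cells (-0.65, adjusted p = 0.00232 for Atp5md and -0.63, adjusted p = 0.00562 for Atp5e), and without replicate 1 the changes were 0.10 for Atp5md and 0.03 for Atp5e. Removal of the GC and length trend gave calls with lysate in wild-type cells at 0.16 for Atp5a1 (adjusted p = 0.0106), 0.18 for Atp5b, the beta subunit (adjusted p = 0.00961), and 0.14 for Atp5pb (adjusted p = 0.0338). Under that removal Atp5a1 (-0.16, adjusted p = 0.0121) and Atp5pb (-0.14, adjusted p = 0.0432) were called lower and Atp5md higher (0.42, adjusted p = 0.0167) in KO-labelled than in wild-type cells with lysate. Atp5mpl, another small subunit, had a genotype change of -0.18 with lysate (adjusted p = 0.362) and -0.33 alone (adjusted p = 0.0873), where Atp5mpl was called when either wild-type lysate library was left out (adjusted p = 0.00871 and 0.00903).

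Complex II is also the succinate dehydrogenase of the TCA cycle and has only nuclear-encoded subunits. It held no call in the limma fit described above, before any change of setting. Sdha (Entrez 66945), the flavoprotein, was at 11.10 and 11.12 in KO-labelled cells with lysate and 11.04 and 11.13 in KO-labelled cells alone, against 11.19 and 11.22 in wild-type cells with lysate and 11.14 and 11.14 in wild-type cells alone. Sdhb, the iron-sulfur subunit, had a genotype change of -0.14 with lysate (adjusted p = 0.233) and -0.10 alone (adjusted p = 0.441). Sdhc and Sdhd anchor the complex in the membrane. The genotype change with lysate was -0.22 for Sdhc (adjusted p = 0.08) and -0.12 for Sdhd (adjusted p = 0.403). Sdhd had a change with lysate of -0.18 in KO-labelled cells (adjusted p = 0.206) and -0.21 in wild-type cells (adjusted p = 0.116). With the GC and length trend removed calls were gained for Sdhc between labels with lysate (-0.21, adjusted p = 0.0325) and for Sdhd with lysate in wild-type cells (-0.24, adjusted p = 0.0187).

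None of the 8 complex I assembly factors was called. Ndufaf4 was at 7.04 and 7.17 in KO-labelled cells with lysate and 6.87 and 7.13 in KO-labelled cells alone, and at 7.16 and 7.06 in wild-type cells with lysate and 6.82 and 6.80 in wild-type cells alone. Its lysate and alone libraries overlapped in KO-labelled cells and not in wild-type cells, where the change was 0.29 (adjusted p = 0.0536). With only the groups compared Ndufaf4 was called (adjusted p = 0.0311). With the GC and length trend removed its wild-type change was 0.13 and was not called (adjusted p = 0.259). Per length the factors had a median level of 6.23, the lowest among the classes of members, and Ndufaf6 was lowest at 5.11. The pseudogene Ndufs5-ps lay between 8.37 and 8.63 over the 8 libraries and its near-copy Ndufs5 between 8.22 and 8.54. Reads of the pair could have been split, so both are uncertain.

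Between genotype labels the members lay to the low side of all genes by a small amount. In cells with lysate 83 of 90 had a negative change, beside 6125 of the 11785 genes tested. The median was -0.13, beside -0.01 for all genes. In cells alone 70 of 90 were negative, beside 5820 of the 11785 genes tested. The median was -0.07, beside 0.00 for all genes. With lysate, 34 of 36 were negative in complex I (median -0.17), 4 of 4 in complex II (-0.13), 8 of 9 in complex III (-0.13), 14 of 14 in complex IV (-0.13) and 16 of 17 in complex V (-0.13). Of the assembly factors 5 of 8 were negative, with a median of -0.01. In cells alone, complex IV (13 of 14 negative, median -0.16) and complex V (16 of 17, -0.13) had lower medians than complex I (26 of 36, -0.07) and complex III (7 of 9, -0.07).

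The size of this shift differed between the wild-type lysate libraries. Replicate 1 was below replicate 2 in 83 of 90 members (92.2%), with a median difference of -0.21, while 48.5% of all genes were lower in replicate 1. Over all genes the difference between these replicates had a Spearman correlation of 0.36 with transcript length (11420 genes, which share both libraries), and over 89 members it was 0.40. Without replicate 1 the members' median genotype change with lysate was -0.23, and without replicate 2 it was -0.02. The median change with lysate in wild-type cells was -0.02 with both, 0.08 without replicate 1 and -0.11 without replicate 2. The counts of calls that follow are given without the share of all genes called under the same setting. They therefore do not set the members apart from other genes. The number of members called between labels with lysate was 12 when wild-type lysate replicate 1 was left out and 2 when replicate 2 was. It was 0 when KO-labelled lysate replicate 1 was left out and 1 when replicate 2 was. In cells alone the number was 0 without either wild-type alone library.

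**Figure D3:**
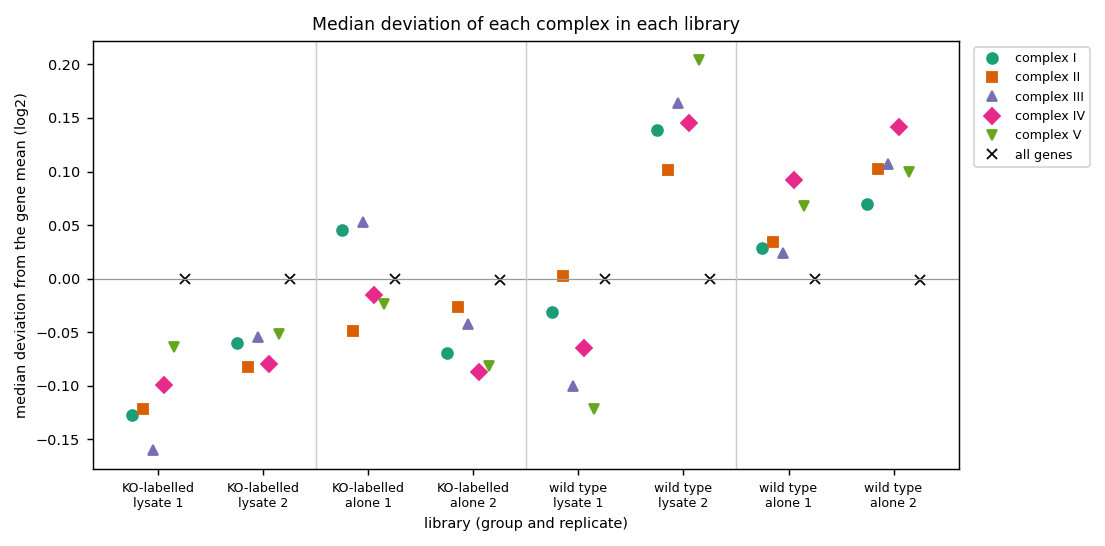
Median over the subunits of each complex of the deviation of a gene from its own mean over the 8 libraries (y axis, log2), per library (x axis), with the median of all genes as crosses. The wild-type lysate libraries lie apart, with complex V at -0.12 in replicate 1 and 0.20 in replicate 2, while all genes stay near 0.

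Member transcripts were short. Their median length was 865 bases, against 2889.5 for all genes, and 58.4% were under 1000 bases, against 6.43% of all genes. Their median GC content was 51.0%, against 50.4%. Over 11419 genes the lysate change had a Spearman correlation with GC content of -0.28 in KO-labelled and -0.39 in wild-type cells. Over 89 members it was -0.48 in KO-labelled and -0.43 in wild-type cells. For the genotype change it was 0.24 with lysate and 0.07 alone over these genes, and 0.01 and 0.06 over these members. The 52 members under 1000 bases had a median genotype change of -0.15 with lysate and -0.12 alone, and the 682 other genes under that length had -0.09 with lysate and -0.03 alone. Once the trends of each library with GC content and length were taken out, the members' median genotype change was -0.06 with lysate and -0.02 alone.

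**Figure D4:**
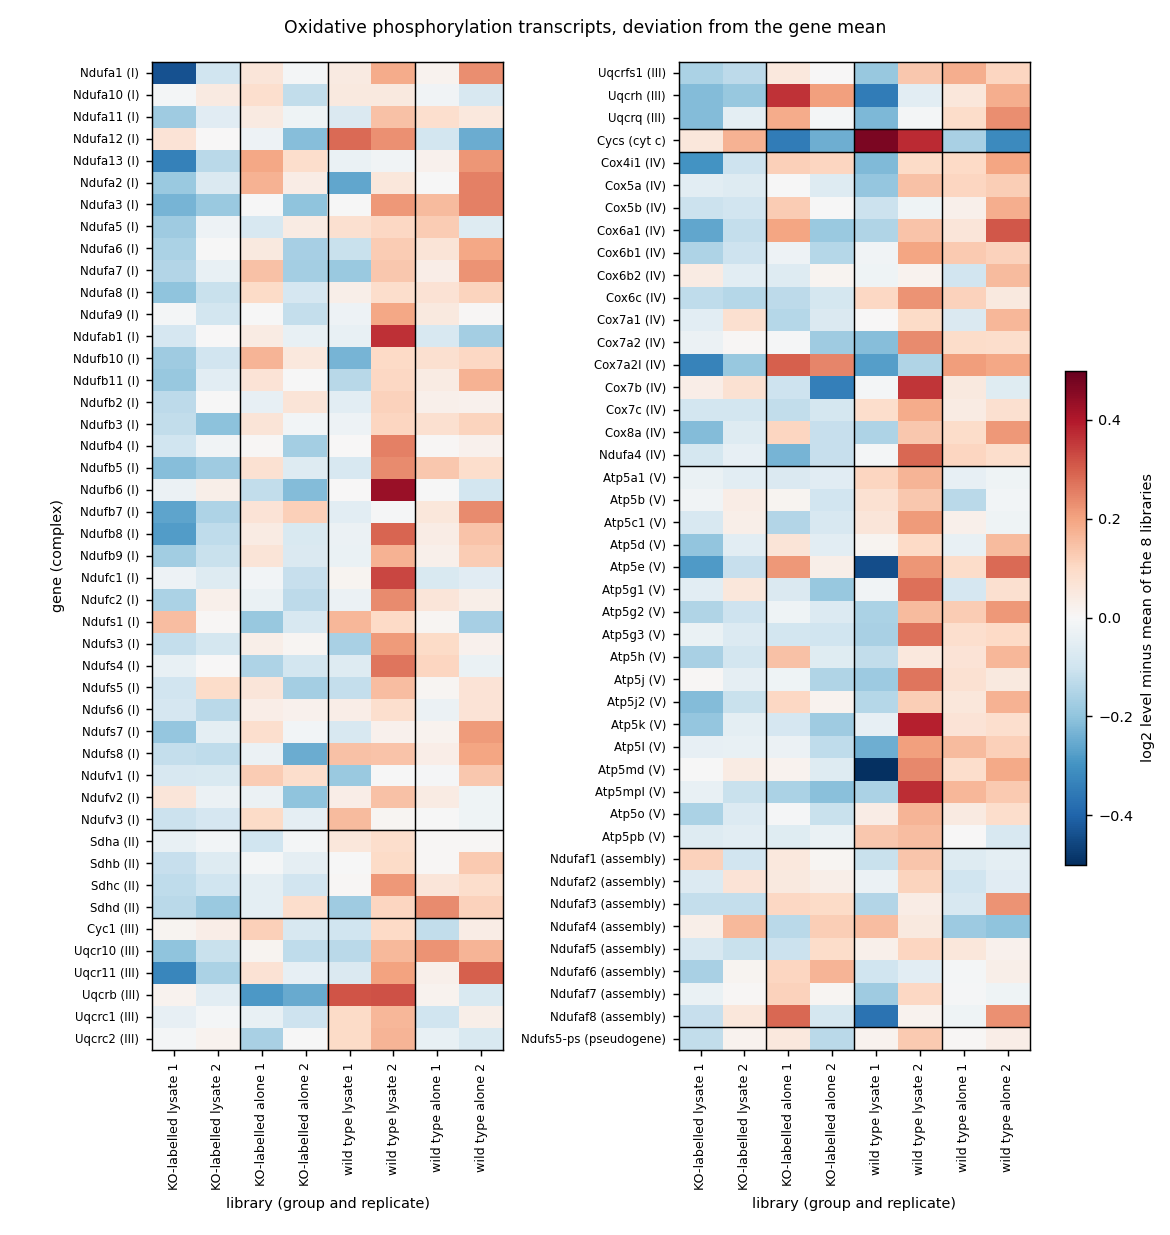
Deviation of each of 89 transcripts (rows, grouped by complex) from its own mean over the 8 libraries (columns), as a log2 colour scale from -0.5 (blue) to 0.5 (red). Wild-type lysate replicate 2 is red in most rows and replicate 1 is not, and the row of Cycs runs red with lysate and blue alone.

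Some markers of other cell types were called between the labels as well. Over all genes 5.45% were lower and 7.44% higher in KO-labelled cells with lysate, and 9.23% were lower and 7.02% higher alone. Of 10 neutrophil markers 9 were lower in KO-labelled cells in both treatments, with a summed log2 level of 12.57 to 12.69 in KO-labelled cells with lysate and 12.65 to 12.75 alone, against 13.80 to 14.08 in wild-type cells with lysate and 14.12 to 14.18 alone. Of 9 macrophage markers 3 were lower with lysate and 6 alone, with sums of 17.07 to 17.12 in KO-labelled cells with lysate and 17.06 to 17.09 alone, against 17.39 to 17.40 in wild-type cells with lysate and 17.59 in both wild-type libraries alone. Of 5 measured proliferation markers 2 were lower with lysate and 3 alone, with sums of 9.54 to 9.59 in KO-labelled cells with lysate and 9.51 to 9.53 alone, against 9.87 to 10.00 in wild-type cells with lysate and 9.96 to 9.99 alone. Dendritic cell markers were higher in KO-labelled cells for 6 of 12 with lysate and for 4 alone, where 1 was lower. Of 5 measured melanoma markers 2 were higher in KO-labelled cells with lysate, Tyrp1 (0.38, adjusted p = 0.0177) and Dct (0.29, adjusted p = 0.0468). Of 3 measured mast cell markers 1 was higher with lysate, and of 2 measured T and NK cell markers 1 was lower alone. In these bulk libraries fewer cells of a type and less RNA per cell cannot be told apart, and the part of such cells in the genotype values of the subunits was not tested.

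Across treatments, the 5 melanoma markers with a row (of 8, with Mlana, Sox10 and Tyr without one) rose with lysate in both labels. Their sums were 10.39 to 10.45 in KO-labelled cells with lysate, against 9.80 to 9.96 alone, and 10.45 to 10.56 in wild-type cells with lysate, against 10.00 to 10.12 alone. Mitf, a transcription factor that myeloid cells also express, made up most of each sum, with a rise of 0.45 in KO-labelled cells (adjusted p = 0.00366) and 0.38 in wild-type cells (adjusted p = 0.00795). The pigment enzyme gene Dct was at 6.20 and 6.13 in KO-labelled cells with lysate and 4.87 and 4.84 alone, and at 5.80 and 5.95 in wild-type cells with lysate and 4.75 and 4.75 alone. Its rise was 1.31 in KO-labelled cells (adjusted p = 2.09e-06) and 1.13 in wild-type cells (adjusted p = 3.04e-06), and that of Tyrp1 was 1.24 in KO-labelled cells (adjusted p = 3.08e-06) and 1.04 in wild-type cells (adjusted p = 9.04e-06). With lysate 6.92% of all genes were lower and 8.28% higher in KO-labelled cells, and 11.3% were lower and 10.2% higher in wild-type cells. Of 12 dendritic cell markers 8 fell with lysate in KO-labelled cells and 7 in wild-type cells. Of 9 macrophage markers 2 rose and 0 fell in KO-labelled cells, and 2 rose and 4 fell in wild-type cells. Of 10 neutrophil markers 2 fell in KO-labelled cells and 3 in wild-type cells. In each label 1 of 3 mast cell markers fell, and 0 of 2 T and NK cell markers fell in KO-labelled cells and 2 in wild-type cells. No proliferation marker was called with lysate. The part of melanoma RNA or of these cells in the lysate values of Cycs and the other subunits was not tested.

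No member passed the threshold for a difference between the lysate effects of the labels, where 13 genes of the table did (0.11%). At an unadjusted p under 0.05, limma gave 1 member and 980 of all genes. The members' median difference, KO-labelled minus wild type, was -0.06, beside 0.00 for all genes. It was -0.15 without wild-type lysate replicate 1 and 0.03 without replicate 2.

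**Figure D5:**
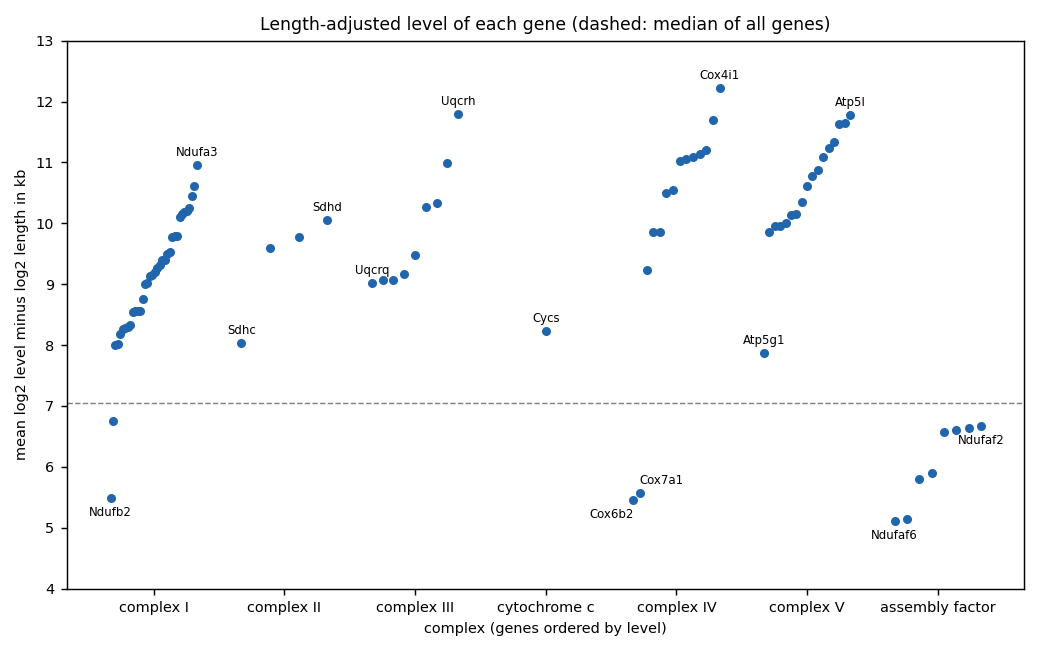
Mean log2 level over the 8 libraries minus log2 transcript length in kilobases (y axis) of the 89 transcripts with a length, by complex (x axis), ordered by level within each. The dashed line is the median of all genes at 7.05, with most subunits above it and the 8 assembly factors below.

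Per length the members had a median level of 9.60, against 7.05 for all genes. The medians were 9.18 in complex I, 9.69 in complex II, 9.48 in complex III, 10.79 in complex IV and 10.62 in complex V. Cox4i1 (12.22), Uqcrh (11.79) and Atp5l (11.78) had the highest levels per length, and Cycs was at 8.23. In complex I these levels ran from 5.48 for Ndufb2 to 10.95 for Ndufa3, and in complex II from 8.04 for Sdhc to 10.05 for Sdhd.

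Called genes of a TCA cycle list and of a mitochondrial carrier list were higher with lysate, in KO-labelled cells at shares near that of all genes. The first list held 17 genes of the TCA cycle and of pyruvate dehydrogenase, without the complex II subunits. Of these 1 (5.88%) rose in KO-labelled cells, where 8.28% of all genes did. It was Idh3a (0.34, adjusted p = 0.0147), a subunit of the NAD-dependent isocitrate dehydrogenase. In wild-type cells 4 (23.5%) rose, where 10.2% of all genes did, and 0 fell, with a median of 0.17, beside -0.01 for all genes, among them Idh3a (0.52, adjusted p = 0.000881), Mdh2 (0.29, adjusted p = 0.00988), a malate dehydrogenase, and Ogdh (0.26, adjusted p = 0.0126), a subunit of the oxoglutarate dehydrogenase. The second list held 20 genes of carriers, porins and import, with chaperones and prohibitins among them. In KO-labelled cells 2 (10.0%) of these rose, the import receptor Tomm70a (0.33, adjusted p = 0.0441) and the ADP/ATP carrier Slc25a5 (0.29, adjusted p = 0.0496). In wild-type cells 7 (35%) rose and 0 fell, with a median of 0.11, among them Slc25a5 (0.45, adjusted p = 0.00438) and the matrix chaperones Hspd1 (0.36, adjusted p = 0.00324) and Hspa9 (0.35, adjusted p = 0.00417). No gene of either list was called for a difference between the labels' lysate effects. Between labels with lysate, Suclg2 (-0.36, adjusted p = 0.0144), a succinyl-CoA ligase subunit, and Phb (-0.34, adjusted p = 0.0222), prohibitin, were lower in KO-labelled cells, and neither list held a call alone.

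Assembly and expression factors gave few calls. Of 45 measured assembly factors of the chain (of 49 listed, the 8 above included), 3 (6.67%) fell with lysate in KO-labelled cells, a share near the 6.92% of all genes. These were Uqcc3 (-0.38, adjusted p = 0.0156), of complex III, and Timmdc1 (-0.28, adjusted p = 0.0322) and Acad9 (-0.28, adjusted p = 0.0332), of complex I. In wild-type cells 1 (2.22%) rose, against 10.2% of all genes, the complex III assembly ATPase Bcs1l (0.365, adjusted p = 0.0343), and none was called between labels. Of 18 measured regulators of mitochondrial biogenesis and mitochondrial DNA expression (of 19 listed, Ppargc1a having no row in the table used here), 1 (5.56%) fell with lysate in KO-labelled cells, Mterf4 (-0.46, adjusted p = 0.0018), against 6.92% of all genes. In wild-type cells 3 (16.7%) fell, against 11.3% of all genes, Mterf4 (-0.47, adjusted p = 0.00117), the mitochondrial DNA polymerase Polg (-0.49, adjusted p = 0.00237) and the helicase Twnk (-0.38, adjusted p = 0.0105).

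Mterf4, a factor of mitochondrial ribosome assembly, was at 10.09 and 9.88 in KO-labelled cells with lysate and 10.44 and 10.45 in KO-labelled cells alone, against 9.37 and 9.34 in wild-type cells with lysate and 9.85 and 9.81 in wild-type cells alone. It was higher in KO-labelled cells by 0.63 with lysate (adjusted p = 0.000374) and 0.62 alone (adjusted p = 0.000189), without overlap. Ppargc1b, a coactivator of mitochondrial genes, was lower in KO-labelled cells alone (-0.33, adjusted p = 0.0196). Atpif1, the inhibitor of ATP synthase, fell with lysate in KO-labelled cells to 11.19 and 11.25, against 11.49 and 11.49 alone (-0.27, adjusted p = 0.0169), and was not called in the other comparisons.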

How the data were processed

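The 8 RNA-seq libraries of 4 groups were read from a whole-series table of log2 values per Entrez gene, deposited by the authors. Libraries had been made with a stranded mRNA kit, per the labels' protocols. Per the submitters' processing notes STAR, deepTools, DESeq2 and the mouse build mm9 were used, with no versions, and the table's name was read as a regularized logarithm, which shrinks differences of weakly read genes. The sources used here do not give the counting tool, its strand setting or the gene filter. The 4 immunoprecipitation samples were not analysed here, and 1 member is counted but not reported by itself.

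Symbols came from RefSeq GRCm38.p6 for 11744 of 11786 rows, used for names and promoters only, since the build differs from mm9. Transcript length and GC content were available for 11420 rows and 89 of the 90 members. Each was the median over the coding transcripts of a gene with its best principal rank. Where no transcript had such a rank, the median was over all coding transcripts of the gene. Genes with a highest group mean of at least 4 were tested, which removed 1. Group means of all 8 libraries were fitted with limma 3.58.1 (R 4.3.3; eBayes, trend of the variance on the mean) and tested two-sided with Benjamini-Hochberg adjustment, with 4 residual and 9.33 prior degrees of freedom. The fit was tested on simulated data. The labels do not say whether the libraries within a group stem from different mice or cultures, so the spread behind the p-values may be technical only.

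Members and lists were chosen with earlier results of these data known, and the promoter motifs with member promoters in view. The rule for naming with values took in complex II, cytochrome c, Cyc1 and the 2 members with the smallest p in each complex and comparison. It also took in isoforms of a subunit and the highest and lowest member of each complex. The rule was not followed in full, since Atp5j2, Uqcr10, Ndufaf3, Ndufaf5 and Ndufaf8 met it and are not given with values. Up to 3 called genes of each pathway list were named by smallest p. Ndufb8, Ndufv3, Atpif1 and members named only for a level per length or as near-copies were chosen after their values were seen. Alternatives were a replicate block, other filters, scalings and variance models, only the groups compared, removal of GC and length trends, and leaving out each library. Where that leaves 1 library in a group, its spread is taken from the rest. Figures were drawn with matplotlib 3.10.9 in Python 3.11.15.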

Additional observations from a re-analysis of the deposited data

Results flagged for a closer look

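Ndufv3, a flavoprotein-associated subunit of complex I, had lysate values on opposite sides of those alone in the 2 labels. It was at 8.88 and 8.90 in KO-labelled cells with lysate, both below the 9.08 and 8.94 of KO-labelled cells alone. In wild-type cells it was at 9.14 and 8.995 with lysate, both above the 8.98 and 8.96 alone. The change was -0.12 in KO-labelled cells (adjusted p = 0.339) and 0.10 in wild-type cells (adjusted p = 0.435). The difference between these changes was -0.22, which limma did not call (adjusted p = 0.677).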

How the results depend on the processing

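Counts of called members moved with several choices, always with 0 calls for the difference of lysate effects. The shares of all genes called under each choice are not given beside them. The counts therefore do not show whether the members moved more than other genes. In the order lysate in KO-labelled cells, lysate in wild-type cells, genotype with lysate and genotype alone, the counts were 7, 5, 7 and 2. The numbers of the libraries do not state a pairing, and correlations of same-numbered deviations over all genes ran from -0.61 to 0.26. With the replicate block the counts were 6, 5, 3 and 0, and with the numbers of KO-labelled cells alone crossed, chosen after seeing the data, 18, 19, 20 and 10. With no filter, a filter at 6, centring on 1 median or quantile normalization each count was within 1.5 times those values. Without the mean-variance trend the genotype count with lysate was 4. With only the groups compared it was 14, and that alone was 1. With GC and length trends removed it was 13, and 15 members were called for lysate in wild-type cells. With the block as well these counts were 11 and 14. Leaving out 1 library gave 2 to 11 calls for lysate in KO-labelled cells, 3 to 19 for lysate in wild-type cells, 0 to 12 for genotype with lysate and 0 to 6 for genotype alone. For lysate in KO-labelled cells the 11 came without KO-labelled alone replicate 2, and counts of 2 without either KO-labelled lysate library. For lysate in wild-type cells the 19 came without wild-type lysate replicate 2, the 3 without wild-type alone replicate 2, and counts of 8 without either KO-labelled alone library. Genotype calls with lysate were 12 without wild-type lysate replicate 1 or either KO-labelled alone library, 2 without wild-type lysate replicate 2, and 0 and 1 without KO-labelled lysate replicates 1 and 2. Genotype calls alone were 6 without either wild-type lysate library, 5 without KO-labelled alone replicate 1 and 0 without its replicate 2 or without either wild-type alone or KO-labelled lysate library.

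Calls of Cox7a2l with lysate in KO-labelled cells and of Cycs, Cox7a2l and Uqcrb in wild-type cells passed under each of the 17 alternatives other than the crossed block. Uqcrh between labels with lysate had a change of -0.00 (adjusted p = 0.997) and one of 0.16 (adjusted p = 0.0449) with GC and length trends removed, and the cause was not tested. Over the 47 members named or called, 3973 results stayed on their side of the threshold, 115 passed it, 79 no longer did and 1 turned round. These totals include the crossed block, chosen after seeing the data, which gave 30 of the 115 and 0 of the 79. The lack of read counts, the unknown depth and 2 libraries a group limit precision.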
